A study of Homo sapiens with 29 samples.

Results

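The regions described here carried an ATAC-seq peak in engineered 22Rv1 cells and in no library of the parental cells. The peaks of all 29 libraries were merged where they overlapped or touched, which gave 166696 regions on chromosomes 1 to 22, X and Y. A region was kept when at least 10 of the 14 engineered libraries and 0 of the 15 parental libraries had a peak in it. This left 5121 engineered-only regions. Another 53649 regions met the same minimum in engineered cells but had a peak in at least 1 parental library, and these serve as the comparison. Presence of a peak chose the regions, so their counts in engineered and parental libraries are a description and support nothing by themselves.

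ATAC-seq marks open chromatin by the cuts a transposase makes in it, and 22Rv1 is a human prostate cancer cell line. The parental cells were given DMSO (0.1%), the stereoprobes WX-02-23 or WX-02-43 (20 µM each), or pladienolide B (PladB, a splicing inhibitor) at 10 nM or 100 nM, with 3 libraries per group. The engineered cells overexpressed Y36C-PHF5A, a mutant subunit of the spliceosomal SF3B complex, and carried a doxycycline (Dox)-inducible FOXA1, either WT-FOXA1 or C258A-FOXA1. With Dox, both lines were given DMSO, WX-02-23 (20 µM) or PladB (100 nM), and the WT-FOXA1 line was also given DMSO without Dox, with 2 libraries per group. All treatments lasted 3 h. Y36C-PHF5A was therefore present in all 14 engineered libraries, with and without Dox, and in 0 parental libraries. The labels do not say whether a line was 1 clone, whether replicates came from separate cultures, or how long Dox was given, so p-values measure only the spread between these libraries. No library had Dox without a FOXA1 construct, and the C258A-FOXA1 line had no library without Dox, so an action of Dox itself and the induced FOXA1 cannot be told apart. Endogenous FOXA1 was still present in both lines.

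FOXA1 is a forkhead transcription factor known as a pioneer factor: it binds its sites in compact chromatin and makes them accessible to other factors. In prostate cells it opens enhancers that the androgen receptor then uses. The reactive compound WX-02-23 binds a cysteine of FOXA1 that C258A-FOXA1 replaces with an alanine. PladB and related ligands act on SF3B, and changes at tyrosine 36 of PHF5A are known to make cells less sensitive to them.

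By the names of the peaks, the parental lists were made in 1 folder and the engineered lists in a different one, so cell line and batch of processing cannot be told apart. Engineered lists held 62832 to 92658 peaks and parental lists 82538 to 98193. Sequencing depth is not stated. The caller's background level, recovered from its fold and p-values, served as a relative depth and was 0.546 to 1.256 reads per base in engineered and 0.662 to 1.502 in parental libraries. The lowest summit called held 5 to 8 reads, so a region without a peak may have been open below that level. The reverse set, with at least 10 of 15 parental and 0 engineered libraries, held 4357 regions.

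Most engineered-only regions had no peak in the engineered libraries that were not given Dox. Of the 5121 regions, 4827 (94.3%) had no peak in either no-Dox library and are called Dox-only regions here. Another 5.04% had a peak in both no-Dox libraries, and 36 in 1 of them. Of the Dox-only regions, 2441 were held by all 12 Dox libraries, 1179 by 11 and 1207 by 10. Among regions with no parental peak, the number held by 8, 9, 10 and 11 engineered libraries was 1072, 1082, 1231 and 1208, and it was 2476 at 12 libraries. Regions just inside the rule, held by 10 engineered libraries, had a median width of 422 bp and 12.5 summit reads, and regions just outside it, held by 9, had 404 bp and 12 summit reads. On the parental side, 257 regions met the engineered minimum with a peak in 1 parental library, and they had a median width of 450 bp and 15.5 summit reads.

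**Figure D1:**
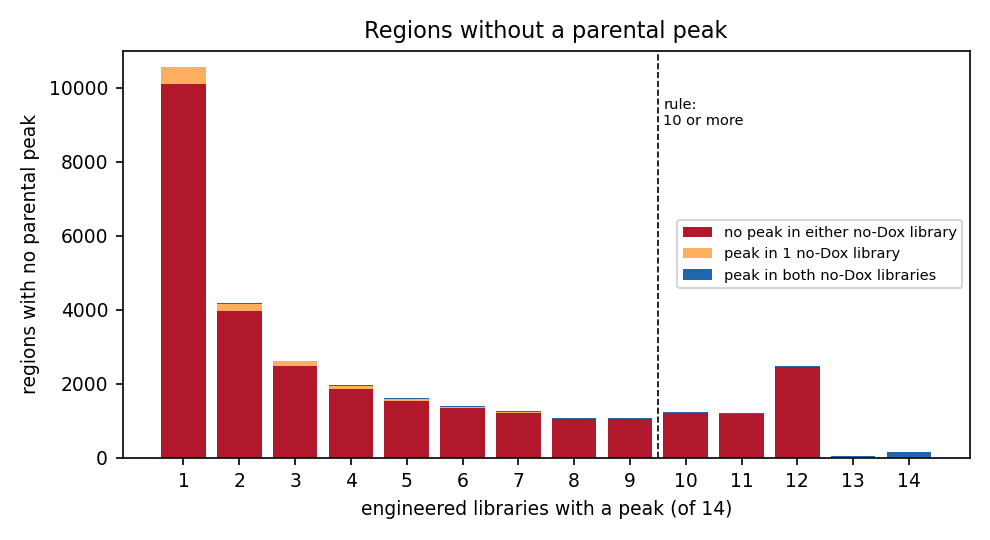
Regions with no parental peak, by the number of engineered libraries with a peak in them (horizontal axis, of 14). Bar height is the number of regions, colours give the no-Dox libraries with a peak, and the dashed line is the rule; the bar at 12 libraries holds 2476 regions, of which 2441 had no peak without Dox.

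In the WT-FOXA1 line the engineered-only regions were nearly all present with Dox and nearly all absent without it. With Dox and DMSO, 96.3% and 97.9% of them had a peak in replicates 1 and 2. Without Dox the shares were 5.49% and 5.29%. The difference was -91.7 percentage points (SE 0.836, 2 against 2 libraries), against -4.84 (SE 0.586) for the regions with a parental peak, of which 94.3% and 93.3% were held without Dox. Both no-Dox lists were shorter, at 69814 and 67195 peaks, than the Dox DMSO lists, at 88140 and 85009. With all 29 lists held to the same number of peaks the difference was -82.7 points.

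As a call per region, a Dox gain was a peak in both Dox DMSO libraries of the WT-FOXA1 line and in neither no-Dox library. This held for 12964 of the 68830 regions with a peak in both Dox DMSO libraries, 18.8% of them. It held for 4557 of the 4834 engineered-only regions with a peak in both, and since the rule asked for 10 of 14 libraries, nothing is read from that share. The 4557 regions were 35.2% of all Dox-gained regions and 89.0% of the engineered-only regions. Another 4993 Dox-gained regions, 38.5%, had a peak in at least 1 parental library.

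**Figure D2:**
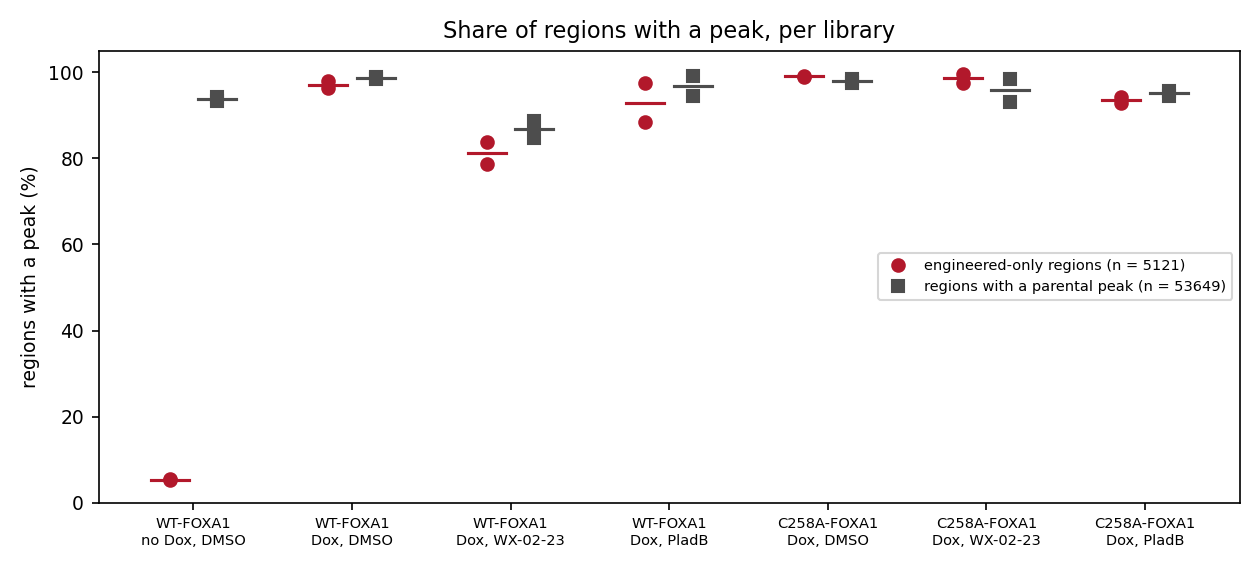
Share of regions with a peak (vertical axis, percent) in each of the 14 engineered libraries; each point is a library, bars are means of 2, red circles are the 5121 engineered-only regions and grey squares the 53649 regions that also had a parental peak. Red points lie at 5.49% and 5.29% without Dox and between 78.6% and 99.6% with Dox.

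Because the rule used both lines, the recurrence of such regions was also looked up with regions chosen on 1 line alone, a set added after the values were seen. In the WT-FOXA1 line, 7971 regions had a peak in both Dox DMSO libraries and in no no-Dox or parental library, and 4557 of them were engineered-only regions by the rule. The C258A-FOXA1 DMSO libraries, which this choice did not use, held 77.7% and 79.3% of the 7971. Regions with a parental peak that were present in the WT-FOXA1 line with and without Dox numbered 50117, and the same libraries held 95.8% and 96.7% of those. Of the 4993 Dox-gained regions with a parental peak they held 61.8% and 66.2%. Chosen the other way, 10044 regions had a peak in both C258A-FOXA1 DMSO libraries and in no no-Dox or parental library. The WT-FOXA1 DMSO libraries held 66.1% and 68.6% of them. Most regions of each choice thus had a peak in the other line too. Since no C258A-FOXA1 library lacked Dox, absence without Dox was seen in the WT-FOXA1 line only. These shares were not tested.

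WX-02-23 went with fewer engineered-only regions in the WT-FOXA1 line, where 83.9% and 78.6% of them had a peak, against 96.3% and 97.9% with DMSO. The difference was -15.8 points (SE 2.78), and both WX-02-23 libraries lay below both DMSO libraries. For the regions with a parental peak the difference was -11.9 points (SE 2.00). The value depended on the minimum of the rule. It was -8.38 to -7.41 points when 1 Dox library of any other group was left out, with 10 of the other 13 required, and -0.597 with at least 12 of 14 libraries required. With C258A-FOXA1, 97.6% and 99.6% of engineered-only regions had a peak with WX-02-23, against 99.0% and 99.1% with DMSO, and the groups overlapped. That difference was -0.469 points (SE 1.02), smaller than the spread between replicates. Both WX-02-23 lists of the WT-FOXA1 line were short, at 67815 and 62832 peaks, and with lists of equal length its difference was -4.57 points.

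Region by region, 422 of 4834 engineered-only regions (8.73%) held by both DMSO libraries of the WT-FOXA1 line were missing from both libraries given WX-02-23, where the background over all regions was 16.5%. In the C258A-FOXA1 line it was 2 of 5024 (0.0398%), against a background of 3.85%. The rule lets at most 4 engineered libraries lack a peak, and a Dox-only region already lacks 2, so these counts cannot be large. Leaving out 1 library other than a WX-02-23 library of that line, with 10 of the other 13 required, took the 422 down to as few as 17.

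A set that did not use the WX-02-23 or PladB libraries was therefore counted, added after the values were seen. It held the 5804 regions with a peak in all 4 Dox DMSO libraries of the engineered lines and in no no-Dox or parental library, and 4481 of them were engineered-only regions. With WX-02-23, the WT-FOXA1 libraries held 70.7% and 65.2% of the 5804 regions and the C258A-FOXA1 libraries 91.4% and 97.5%. With PladB, the WT-FOXA1 libraries held 76.4% and 90.3% and the C258A-FOXA1 libraries 82.5% and 84.7%. The 2 WT-FOXA1 libraries with WX-02-23 were the lowest of the 8. Of the 5804 regions, 1243 (21.4%) had no peak in either WT-FOXA1 library with WX-02-23, and 74 (1.27%) in neither C258A-FOXA1 one. With PladB, 380 (6.55%) and 521 (8.98%) were missing from both libraries. Over all regions held by both DMSO libraries of the line, the same losses were 16.5% and 3.85% with WX-02-23 and 4.45% and 6.6% with PladB. Leaving out 1 of the libraries concerned, so that absence from the other was enough, took the 4 counts to as many as 2017, 498, 1368 and 1013.

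With lists of equal length the same choice gave 3281 regions. The WT-FOXA1 libraries with WX-02-23 then held 81.4% and 81.5% of them, those with PladB 86.3% and 86.7%, and the C258A-FOXA1 libraries 94.1% and 96.2% with WX-02-23 and 88.9% and 88.8% with PladB. The order of the groups stayed as in the deposited lists, with the WT-FOXA1 line and WX-02-23 lowest, but the number missing from both of its WX-02-23 libraries was 352 instead of 1243. With 2 libraries per group no exact test of these shares can pass 0.05.

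**Figure D3:**
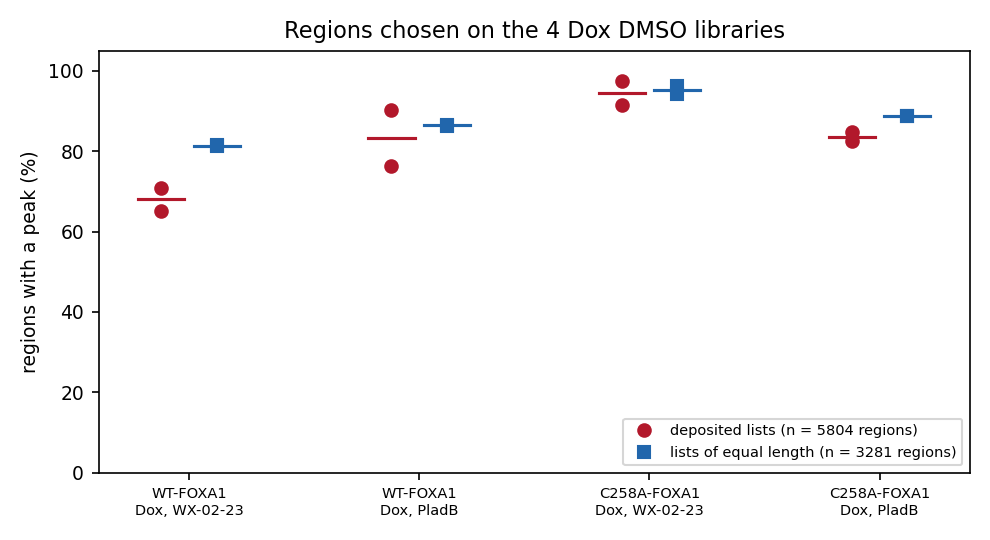
Share with a peak (vertical axis, percent) of regions chosen for a peak in all 4 Dox DMSO libraries and in no no-Dox or parental library; each point is a library and bars are means of 2, for the deposited lists (red, 5804 regions) and lists of equal length (blue, 3281 regions). The WT-FOXA1 libraries with WX-02-23 are lowest in both, at 70.7% and 65.2% and at 81.4% and 81.5%.

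Engineered-only regions that lost their peak with WX-02-23 in the WT-FOXA1 line had few reads to begin with. The 400 Dox-only regions with a peak in both DMSO libraries and neither WX-02-23 library of that line had a median of 13 summit reads in each DMSO library. The 3219 Dox-only regions held by both had 17 in each. The median strength, the percentile of a peak's p-value within its own list, was 35.4 and 37.7 for the lost regions and 52.1 and 54.9 for those kept. These 400 regions lacked the 4 libraries that the rule allows, so a peak in the other 10 was a condition of the choice.

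As examples chosen after their values were seen, the 3 strongest such regions are given here, each held by the 10 libraries that the rule requires. The region chr1:78453412-78453936 (hg19) held 19 and 20 summit reads with DMSO and 22 and 17 with PladB in the WT-FOXA1 line. In the C258A-FOXA1 line it held 30 and 32 with DMSO, 16 and 31 with WX-02-23 and 20 and 18 with PladB. The region chr6:79269018-79269666 held 17 and 20 with DMSO in the WT-FOXA1 line, and 29 and 26 with DMSO and 16 and 27 with WX-02-23 in the C258A-FOXA1 line. The region chr21:24811369-24812036 held 15 and 22, then 17 and 25, then 17 and 22 in the same groups. In all 3, summit reads of the C258A-FOXA1 libraries with WX-02-23 overlapped those of the WT-FOXA1 libraries with DMSO.

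Of the engineered-only regions, 19 had a peak in all 6 DMSO libraries, the no-Dox ones included, and in neither WT-FOXA1 library with WX-02-23. They were 7.66% of the 248 held by both no-Dox libraries and both Dox DMSO libraries of that line. Over all regions held by both of those Dox DMSO libraries, 16.5% were missing from both WX-02-23 libraries. The 5 strongest of the 19 are named. The first was chr4:49177341-49177768, with 14 and 16 summit reads with Dox and DMSO and 15 and 20 without Dox in the WT-FOXA1 line. The others were at chr3:47753133-47753563, chr1:212875295-212875642, chr5:80919307-80919910 and chr6:15248853-15249156. Across all 5, summit reads ran from 8 to 43.

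PladB was used at 100 nM in both engineered lines. In the WT-FOXA1 line 88.3% and 97.5% of engineered-only regions had a peak, a difference from DMSO of -4.17 points (SE 4.64) that lay within the spread between replicates. In the C258A-FOXA1 line the shares were 92.9% and 94.3%, both below both DMSO libraries, a difference of -5.47 points (SE 0.727), against -2.87 (SE 0.686) for regions with a parental peak. It was -3.40 to -2.92 points when 1 Dox library of any other group was left out, and -0.298 with at least 12 of 14 libraries required. Missing from both PladB libraries were 44 of 4834 engineered-only regions (0.910%) in the WT-FOXA1 line, against a background of 4.45%, and 70 of 5024 (1.39%) in the C258A-FOXA1 line, against 6.6%. The limit set by the rule holds for these counts too. The C258A-FOXA1 libraries with PladB had the lowest backgrounds of all, 0.546 and 0.587 reads per base, and the part of depth in this difference was not tested.

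Where Dox-only regions had a peak in both lines, summit reads were higher in the C258A-FOXA1 libraries with DMSO than in those of the WT-FOXA1 line. For the 2441 held by all 12 Dox libraries, the median summit held 18 and 19 reads in the WT-FOXA1 DMSO libraries and 24 in each C258A-FOXA1 DMSO library. Divided by each library's background and put on a log2 scale, the library medians were 4.37 and 4.49 against 5.00 and 4.79. The difference of these means was 0.46 (SE 0.12), and both C258A-FOXA1 libraries lay above both WT-FOXA1 libraries. For the 38549 regions with a parental peak held by the same 12 libraries it was 0.07 (SE 0.06). Region by region, the median difference over Dox-only regions was 0.49, above 0 for 2114 of 2441 (86.6%). It was also above 0 for 24937 of the 38549 regions with a parental peak (64.7%). Of the 169 engineered-only regions held by all 14 libraries, 119 (70.4%) were above 0.

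Scaled summit reads of both C258A-FOXA1 DMSO libraries exceeded both WT-FOXA1 DMSO libraries in 1694 of these 2441 regions (69.4%), where 30.5% of all regions held by the 4 libraries did. The reverse held for 148 (6.06%), with a background of 12.1%. Among the regions with a parental peak the shares were 28.1% and 11.6%, near those backgrounds.

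**Figure D4:**
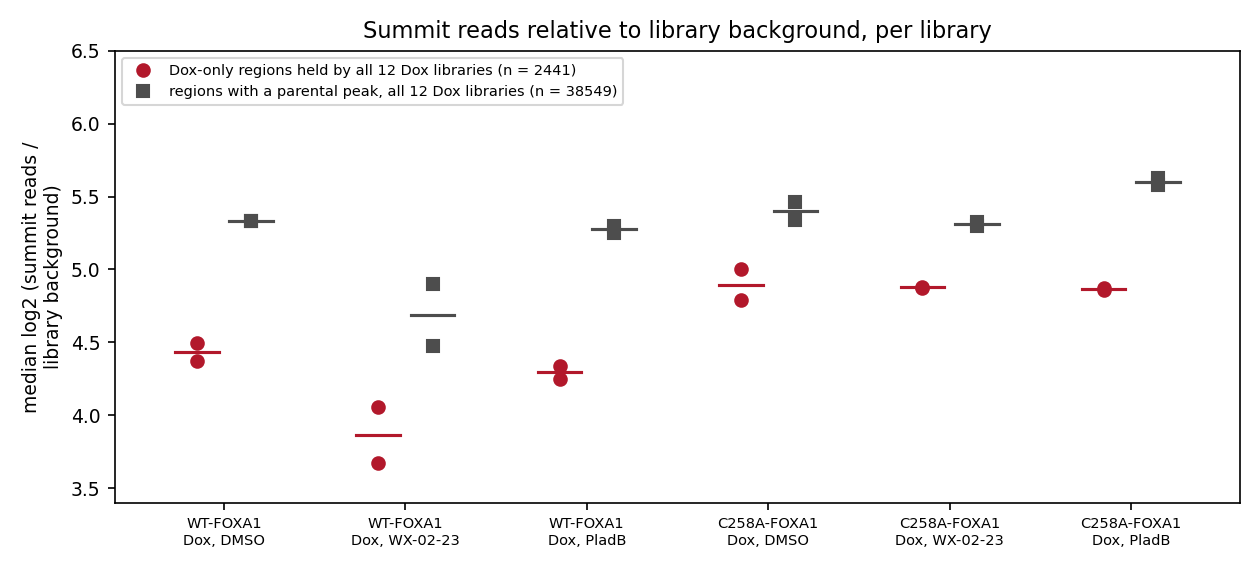
Median over regions of log2 summit reads divided by the library's background (vertical axis) in each Dox library; each point is a library and bars are means of 2, for 2441 Dox-only regions held by all 12 Dox libraries (red) and 38549 regions that also had a parental peak (grey). In DMSO the red medians are 4.37 and 4.49 in the WT-FOXA1 line and 5.00 and 4.79 in the C258A-FOXA1 line.

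The same comparison was made on strength percentiles over all 12 Dox libraries. In the WT-FOXA1 line the library medians of the 2441 regions were 56.5 and 59.3 with DMSO, 48.7 and 43.7 with WX-02-23, and 47.5 and 57.3 with PladB. The C258A-FOXA1 medians were 69.3 and 69.8, 66.3 and 73.8, and 57.0 and 59.7. The lines overlapped only through the C258A-FOXA1 libraries given PladB, and within DMSO and within WX-02-23 every C258A-FOXA1 library lay above every WT-FOXA1 library. The lines differed by 13.8 points. An exact two-sided permutation test, with lines exchanged within treatments, gave p = 0.0185 over 216 arrangements, and 0.0741 after Benjamini-Hochberg adjustment over 4 tests. On log2 scaled summit reads, a measure added after the values were seen, the difference was 0.68. The same exact permutation test gave an adjusted p of 0.037, and the range over the alternatives is given in the closing section. Regions with a parental peak had group means on this measure of 5.33, 4.69 and 5.27 with DMSO, WX-02-23 and PladB in the WT-FOXA1 line. In the C258A-FOXA1 line the means were 5.40, 5.31 and 5.60, higher under each treatment. The line difference of the regions with a parental peak was not tested. The 2441 regions were chosen for a peak in every Dox library and for none without Dox, and the no-Dox libraries belong to the WT-FOXA1 line alone, so the choice did not treat the lines evenly. In the 169 regions held by all 14 engineered libraries, the difference between lines in DMSO was -1.01 points (SE 2.08), and scaled summit reads were higher in both C258A-FOXA1 than in both WT-FOXA1 libraries in 58 (34.3%), near the background of 30.5%. On log2 scaled summit reads these 169 regions differed by 0.09 (SE 0.06) in DMSO. Over all 12 Dox libraries the 169 regions differed by 0.23 on that measure, with an adjusted p of 0.0463 from the exact permutation test.

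On strength percentiles, no test on these regions passed 0.05 after adjustment. WX-02-23 against DMSO, over both lines, gave -5.66 points (exact permutation p = 0.222, adjusted 0.296), and PladB gave -8.38 points (exact permutation p = 0.111, adjusted 0.222). Both tests had a smallest possible p of 0.0556, so neither could pass 0.05. Within the WT-FOXA1 line the WX-02-23 difference was -11.8 points (SE 2.86) and within the C258A-FOXA1 line 0.458 (SE 3.76). The difference between these, -12.2 points, had an exact permutation p of 0.444 over 36 arrangements, of which the smallest possible is 0.0556. It was -4.64 points after subtracting the median of regions with a parental peak, and -0.420 with lists of equal length. In the WT-FOXA1 line, regions with a parental peak had a mean of 76.9 with DMSO and 68.7 with WX-02-23. In the C258A-FOXA1 line their means were 75.8 and 75.2.

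Scaled summit reads were lower with WX-02-23 in the WT-FOXA1 line whether or not regions were engineered-only. The library medians of the 2441 Dox-only regions were 4.05 and 3.67 with WX-02-23, against 4.37 and 4.49 with DMSO. The difference was -0.57 (SE 0.20), against -0.64 (SE 0.21) in the regions with a parental peak. Both WX-02-23 libraries lay below both DMSO libraries in 67.8% of the Dox-only regions, where the background was 81.4%. In the C258A-FOXA1 line the differences were -0.02 (SE 0.10) and -0.09 (SE 0.06), and the count below was 490 of 2441 (20.1%), with a background of 26.8%. Both WX-02-23 libraries lay above both DMSO libraries in 34 Dox-only regions (1.39%) of the WT-FOXA1 line and in 348 (14.3%) of the C258A-FOXA1 line, with backgrounds of 0.994% and 11.5%.

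With PladB in the C258A-FOXA1 line, the Dox-only regions differed from DMSO by -0.03 (SE 0.10) and the regions with a parental peak by 0.20 (SE 0.07). Both PladB libraries were above both DMSO libraries in 431 Dox-only regions (17.7%), against a background of 41.6%, and below them in 517 (21.2%), against 6.12%. The difference between these shares and the background was not tested. With PladB in the WT-FOXA1 line, 216 Dox-only regions (8.85%) were higher and 748 (30.6%) lower, where the backgrounds were 9.66% and 26.8%.

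The 5 strongest Dox-only regions held by all 12 Dox libraries had a mean strength of 89.6 to 94.3. The first was chr9:18085261-18085967, 707 bp wide, with 49 and 69 summit reads with DMSO, 48 and 46 with WX-02-23 and 47 and 77 with PladB in the WT-FOXA1 line. The C258A-FOXA1 libraries held 78 and 81, 60 and 83, and 66 and 73. The C258A-FOXA1 libraries with DMSO lay above those of the WT-FOXA1 line, and the libraries with WX-02-23 in the WT-FOXA1 line were among the lowest of the 12. The next was chr1:99371455-99372068, with 56 and 63, 45 and 42, and 53 and 65 in the WT-FOXA1 line, and 80 and 73, 64 and 84, and 69 and 61 in the C258A-FOXA1 line, in the same order of treatments. In this region the WT-FOXA1 libraries given WX-02-23 were below the other 10.

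The remaining 3 of the 5 were chr22:28442260-28442979, chr14:27537645-27538300 and chr7:28736181-28736766. Their summit reads ran from 32 to 80 over the 12 Dox libraries, and the mean fold over local background was 13.4 to 15.5. In each of the 5 the lowest library was one given WX-02-23 in the WT-FOXA1 line. No sequence of these regions is printed, because no genome of build hg19 was used here, and no gene is assigned to them for the same reason.

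The engineered-only regions that were also present in both no-Dox libraries differed from the Dox-only regions in their surroundings. Their local background, the caller's estimate of reads around a peak, was a median of 4.17 times the library's background, against 1.21 times for Dox-only regions and 2.16 times for regions with a parental peak. It was over 5 times the library's background in 102 of them (39.5%), in 27 of the 4827 Dox-only regions (0.559%) and in 20.1% of the regions with a parental peak. Their median summit held 29.5 reads, against 15 for Dox-only regions. Of the 39 engineered-only regions with a mean strength above 90, 35 were held without Dox as well and 4 were Dox-only.

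Among the 169 regions held by all 14 engineered libraries, the strongest was chr1:91852703-91853229, with 175 to 214 summit reads and a median of 201. It held 206 and 200 reads without Dox and 202 and 191 with Dox and DMSO in the WT-FOXA1 line. The next named region, chr11:85194927-85195376, held 126 to 159 reads, with 144 and 140 without Dox. In both regions the no-Dox libraries lay within the range of the others, and the lowest of the 14 were the WT-FOXA1 libraries given WX-02-23, at 184 and 175 and at 126 and 128. The widest of the 10 strongest, chr1:121484027-121485488, spanned 1462 bp next to the centromere of chromosome 1 and had a local background of 21.0 to 32.1 times the library's. There the WT-FOXA1 libraries given WX-02-23 held 232 and 254 reads, with 200 to 254 over all 14. At chr1:569738-570154, described below, they held 88 and 87, with 79 to 91 over all 14. A lowest place for these libraries was thus not common to the 10 regions. Others of the 10 were chr5:71146654-71147033, chr1:156186159-156186690, chrX:108297269-108297911, chr17:33478023-33478427 and chr17:31149351-31149963, with 92 to 192 summit reads.

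The region chr1:569738-570154 behaved differently from the other strong regions in that its summit did not move. It held 79 to 91 reads in the 14 libraries, and the summits all lay within 1 bp of each other. This end of chromosome 1 is known to hold a nuclear copy of mitochondrial DNA. Engineered lists held 2 to 4 peaks on the mitochondrial chromosome and parental lists 0. The part of mitochondrial reads, or of how they were treated in each batch, in this region was not tested.

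On strength percentiles, no difference between conditions passed its test in the 169 regions. Medians were 68.9 and 68.2 without Dox, against 67.8 to 76.5 over the 12 Dox libraries, a difference of -3.80 points. The exact permutation test, two-sided, gave p = 0.0659 over 91 arrangements and 0.330 after adjustment over 5 tests. WX-02-23 against DMSO gave 1.61 points (exact permutation p = 0.222), PladB -2.42 (exact permutation p = 0.278), C258A-FOXA1 against WT-FOXA1 -1.37 (exact permutation p = 0.259), and the difference of the WX-02-23 effect between lines 0.311 (exact permutation p = 1.0). The adjusted p-values of these 4 were 0.347 to 1.0.

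An expressed construct can add reads over the exons of its own gene, so the genes of both constructs were looked at. The windows of FOXA1 and PHF5A were placed from general knowledge of hg19, and exon bounds were not checked. No engineered-only region lay in the FOXA1 window on chromosome 14. The 2 regions there with a peak in all 29 libraries were chr14:38057383-38058446 and chr14:38064111-38065783. Another, chr14:38063424-38063580, had a peak in 1 engineered library.

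In the PHF5A window on chromosome 22, 1 engineered-only region was found, chr22:41863405-41863669, 265 bp wide. It had a peak in 12 engineered libraries, the no-Dox ones included. Summit reads were 43 and 41 without Dox, and with Dox 48 and 41 with DMSO, 38 and 44 with WX-02-23 and 43 and 44 with PladB in the WT-FOXA1 line. In the C258A-FOXA1 line they were 34 and 36 with DMSO, 36 in the 1 library with a peak with WX-02-23 and 26 in the 1 with a peak with PladB. Every WT-FOXA1 library lay above every C258A-FOXA1 library in summit reads. Divided by the library's background, the lines overlapped, at 35.0 to 56.7 and 39.3 to 45.3. Its local background was 4.38 to 8.64 times the library's, and the summits had an SD of 11.1 bp. The median SD was 49.1 bp in the Dox-only regions held by all 12 Dox libraries. In the 169 regions held by all 14 engineered libraries it was 30.5 bp, with a lower quartile of 9.45 bp. The next region, chr22:41864369-41865676, had a peak in all 29 libraries. Whether reads came from the Y36C-PHF5A construct was not tested.

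Dox-only regions were unevenly spread over the chromosomes. They made up 8.21% of all regions held by at least 10 engineered libraries. The share was 14.2% on chromosome 13, 13.9% on chromosome 4, 13.1% (16 of 122) on chromosome Y, 11.95% on chromosome 21 and 11.9% on chromosome 18. It was 1.27% on chromosome 19, 3.20% on chromosome 22, 3.39% on chromosome 17 and 3.79% on chromosome 16. Chromosomes 19, 22, 17 and 16 are known for a high density of genes, and 13, 4, 18, 21, X and Y for a low one, but chromosome X was at 5.48%, below the share over all chromosomes. Gene density was not measured here. Regions also present without Dox made up 0.439% of all such regions but 24 of 122 (19.7%) on chromosome Y.

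**Figure D5:**
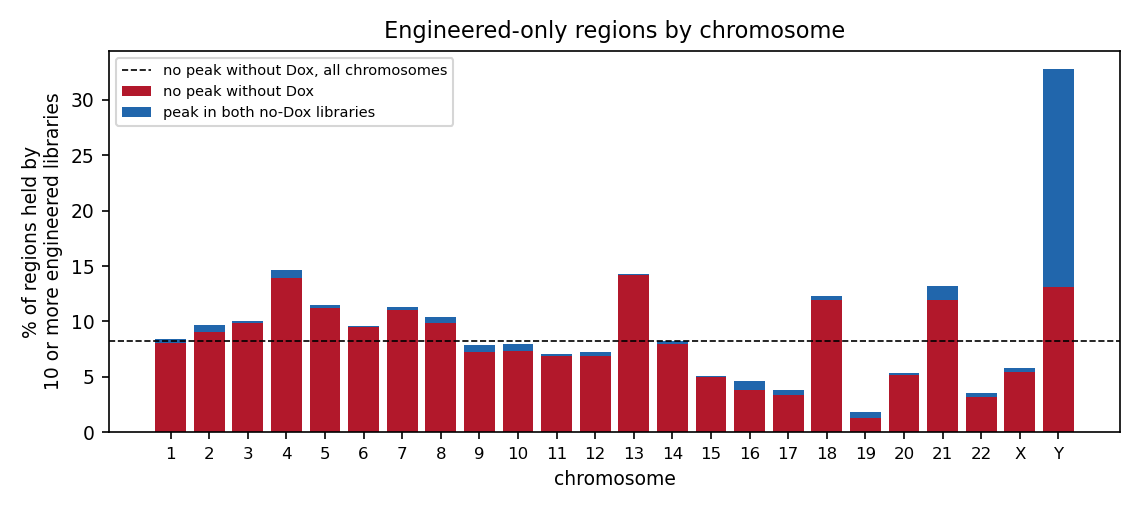
Engineered-only regions as a percentage of all regions held by at least 10 engineered libraries (vertical axis), by chromosome (horizontal axis); red is Dox-only, blue is held by both no-Dox libraries, and the dashed line is the Dox-only share over all chromosomes, 8.21%. The Dox-only share runs from 1.27% on chromosome 19 to 14.2% on chromosome 13, and blue stands out on chromosome Y at 19.7%.

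A run was counted when at least 3 engineered-only regions followed each other with gaps of at most 100 kb. There were 281 runs with 1037 regions (20.2%), and 180 of the runs held 3. In 242 runs every region was Dox-only. Of the Dox-only regions taken alone, 18.1% lay in runs, and of those held by both no-Dox libraries 40.7%. The reverse set, 4357 parental regions with no engineered peak, had 11.9% in runs. Of all 58770 regions held by at least 10 engineered libraries, 92.7% lay in runs. A larger set has more neighbours within a fixed gap, so these shares do not compare clustering, which was not tested. The share of engineered-only regions depended on the gap allowed, with 9.78% at 50 kb and 46.4% at 250 kb.

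In 4 of the 5 largest runs most regions were present without Dox. The first lay at chrY:13451089-13503814 and held 15 engineered-only regions, 13 of them present in both no-Dox libraries. Within its 52.7 kb the engineered lists held 15 to 19 peaks each and the parental lists 0. The run at chr2:92269324-92317875 held 10, all present without Dox, and parental lists again held 0 peaks in it, against 9 to 16 in the engineered lists. The run at chr16:33831042-33975641 held 11 regions, 10 of them present in both no-Dox libraries, where parental lists had 0 to 3 peaks and engineered lists 13 to 22. The runs at chr4:49050178-49325294 and chr21:9412439-9704966 held 9 each, of which 7 and 4 were present in both no-Dox libraries, and 5 of the 9 on chromosome 21 were Dox-only. These 5 places lie near centromeres or on a short arm, known as repeat-rich sequence. Whether the 2 batches treated such sequence differently was not tested.

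The strongest region of the run had a peak in all 14 engineered libraries in 4 of these 5 runs. In the run on chromosome 16 it was chr16:33962767-33964284, with 150 to 175 summit reads, 119 to 297 times the library's background, and a local background of 18.2 to 40.9 times the library's. In the runs on chromosomes 2, 21 and 4 they were chr2:92281176-92281631 (30 to 49 reads), chr21:9704109-9704966 (63 to 83) and chr4:49163022-49163843 (69 to 102). The strongest in the run on chromosome Y, chrY:13503364-13503814, was the 1 Dox-only region there, with 15 to 35 reads in the Dox libraries and a local background of at most 1.74 times the library's.

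Runs of Dox-only regions were shorter in members and lay elsewhere. The largest, at chr1:188192253-188647131 and chr7:146574480-146943352, held 8 Dox-only regions each. In the first, Dox libraries held 14 to 25 peaks, no-Dox libraries 2 and 3, and parental libraries 1 to 5. In the second the ranges were 8 to 16, 3 to 5 and 3 to 11, so the parental range, but not the no-Dox range, overlapped that of the Dox libraries there. Of 2359 windows of 1 Mb with at least 10 regions held by at least 10 engineered libraries, 174 were over 30% Dox-only and 660 held no Dox-only region. The highest share, in the window that starts at 80 Mb on chromosome 3, was 9 of 12.

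Engineered-only regions were narrow. The median width was 466 bp for Dox-only regions, 446 bp for those also present without Dox, 655 bp for regions with a parental peak and 391 bp for the reverse set. Over 1000 bp wide were 0.456%, 8.91%, 19.5% and 0.413% of them. A merged region widens with the number of libraries that hold it, and the single peaks differed less, with library medians of 324.5 bp in Dox-only regions and 334.5 bp in regions with a parental peak. The median strength was 46.0 in Dox-only regions, 51.8 in those also present without Dox, 59.4 in regions with a parental peak and 26.4 in the reverse set.

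Dox-only regions lay farther from stable open chromatin than the comparison did. The median distance to the nearest region held by all 29 libraries was 47.6 kb, against 29.98 kb for regions with a parental peak, and 29.2% against 18.7% lay over 100 kb away. For regions also present without Dox it was 93.4 kb. To the nearest region held by any parental library, Dox-only regions were at a median of 10.5 kb, and regions with a parental peak, measured to the next such region, at 10.95 kb. Summits in the Dox-only regions held by all 12 Dox libraries varied with a median SD of 49.1 bp, against 32.3 bp for regions with a parental peak in the same libraries and 30.5 bp for the 169 regions held by all 14. The regions with fewer summit reads were also those whose summits varied more, and the part of read depth in this was not tested.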

How the data were processed

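Per the labels' protocols, a commercial kit was used to make the ATAC-seq libraries. The submitters' processing notes name Bowtie2, MACS2 and hg19, without versions or options. There is 1 peak list per library, not pooled. For every peak the authors deposited a score, a fold over local background (a ratio), the −log10 p-value, the −log10 q-value and the summit's distance from the peak start. These values are the authors' own and rank peaks within a list.

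All 29 lists were merged over chromosomes 1 to 22, X and Y, and a region counted as held by a library with a peak overlapping it. Summit reads and local background were recovered for 100% of peaks from the deposited fold, (reads + 1)/(background + 1), and its Poisson p-value (tolerance 0.01 in −log10 p). The library's background was the most frequent local value, and scaled reads are summit reads divided by it. Strength is the percentile of the p-value within a list. Its median over a set of regions was compared between libraries by exact permutation tests, two-sided, adjusted by Benjamini-Hochberg. Intervals and p-values cover only the spread between libraries.

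The regions, sets and alternatives were chosen with earlier results of these data known. Regions named by position were the 10 strongest held by all 14 engineered libraries, 5 Dox-only, 5 held by every DMSO library and neither WT-FOXA1 library with WX-02-23, the strongest of each of the 5 largest runs, and any at FOXA1 or PHF5A; 1 of the 10 is not given. Genes, promoters, motifs and sequences were not analysed, although planned, since no hg19 genome or annotation was used. Alternatives were stricter peaks, equal lists, other overlap and library minimums, other run gaps, the replicate block and leaving out each library. On simulated data the region rule recovered 200 of 200 members. Each simulated member had a peak in every engineered library and in no parental library, and every other region had a peak in all libraries. This recovery therefore checks only the counting, not regions near the limits of the rule. In the comparison of lines with 216 arrangements, 5.0% of simulated null tests gave p at or under 0.05. That share does not describe the tests with 36 arrangements, whose smallest possible p is 0.0556. Software was scipy 1.17.1, pandas 2.3.3, numpy 2.4.6, matplotlib 3.10.9, statsmodels 0.14.6 and Python 3.11.15.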

Additional observations from a re-analysis of the deposited data

Results flagged for a closer look

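Peaks on the mitochondrial chromosome, which the comparisons did not use, were present in the engineered lists only: the lowest of the 14 engineered libraries had 2 and the highest 4, and the 15 parental libraries had 0. The parental cells serve as the control line, with and without compound, and they also belong to the other processing batch, so line and batch cannot be told apart. Groups of 2 or 3 libraries are too small for the outlier check, and no tested difference between the lines' responses passed.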

How the results depend on the processing

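The main limits are list length and the minimum number of libraries. With lists of equal length the differences in share with a peak were -82.7 points for no Dox, -4.57 for WX-02-23 in the WT-FOXA1 line, -3.59 for PladB in the C258A-FOXA1 line and 4.53 for C258A-FOXA1 against WT-FOXA1. Missing from both WX-02-23 libraries were then 153 engineered-only regions in the WT-FOXA1 and 13 in the C258A-FOXA1 line. Of the regions chosen on the DMSO libraries, 352 were held by neither WX-02-23 library in the WT-FOXA1 line, 182 by neither of its PladB libraries, and 175 by neither C258A-FOXA1 library with PladB. Strength over the 169 regions gave 0.0853 for no Dox and 1.32 for PladB, a change of sign. Over the Dox-only regions it gave 0.829 for WX-02-23, also a change of sign, and 12.6 between lines (adjusted p 0.037), and 14.6% of regions lay in runs.

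With at least 50% of a region covered, 3315 regions were engineered-only and 3050 of them Dox-only. The differences were -89.1 points for no Dox, -20.5 for WX-02-23 in the WT-FOXA1 line and -6.62 for PladB in the C258A-FOXA1 line, with 6 regions missing with WX-02-23 in that line, 12.5% in runs and a median strength of 55.4. The lines differed by 11.7 points (adjusted p 0.037), and the WX-02-23 effect between lines over the 169 regions changed sign to -1.61. Replacing each peak by its summit and 100 bp to either side gave -88.3 points for no Dox, 7 regions missing with WX-02-23 in the C258A-FOXA1 line and a width of 350.0 bp. Single peaks had a width of 327 bp.

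With at least 12 of 14 libraries, 2682 regions remained, 2441 of them Dox-only. The differences were then -0.597 points for WX-02-23 in the WT-FOXA1 line, -0.298 for PladB in the C258A-FOXA1 line and -0.149 between lines, a change of sign. Missing with WX-02-23 were 8 and 0 regions, 11.2% lay in runs, and the median strength was 56.3. With at least 8 of 14, they were -86.4 points for no Dox, -22.6 for WX-02-23, -11.0 for PladB and 5.78 between lines. Missing with WX-02-23 were 1075 regions in the WT-FOXA1 and 21 in the C258A-FOXA1 line, and 30.1% lay in runs. These follow from the minimum itself, which fixes how many libraries may lack a peak.

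The share in runs was 16.5% with a q-value of 1e-05 or below, 21.5% with at most 1 parental library allowed, 9.78% and 46.4% with gaps of 50 and 250 kb, 17.6% with no other region between, 18.1% for Dox-only regions and 40.7% for those also held without Dox.

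For strength over the 169 regions, the percentile of the fold gave -0.280 for WX-02-23 and -3.71 for its difference between lines. Log2 scaled summit reads, chosen after seeing the data, gave 0.0225 for no Dox, -0.16 for WX-02-23, 0.0515 for PladB, 0.23 between lines (adjusted p 0.0463) and -0.26 for the WX-02-23 effect between lines. Each of these has the other sign than the percentile. Subtracting the median of other regions gave 0.0673 for PladB. With absent peaks at 0 over all engineered-only regions, no Dox gave -47.4 and the lines 16.4, both with an adjusted p of 0.0463 by exact permutation. WX-02-23 gave -8.12 and the WX-02-23 effect between lines -16.7. Except for no Dox, these values changed sign. A 0 for an absent peak brings in presence, which chose the regions, so nothing is read from these values or p-values. Over the Dox-only regions, C258A-FOXA1 against WT-FOXA1 gave 0.68 in log2 scaled summit reads and 12.6 after subtracting the median of other regions, both with an adjusted p of 0.037. The cause of these changes was not tested.

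Leaving out 1 library at a time gave 3907 to 5168 engineered-only and 3634 to 4872 Dox-only regions. Shares differed by -92.7 to -91.5 points for no Dox, -17.1 to -7.41 for WX-02-23 in the WT-FOXA1 line and -0.909 to 0.303 in the C258A-FOXA1 line. For PladB they were -5.84 to -0.0235 and -5.50 to -2.92, and between lines 0.407 to 1.99. Missing with WX-02-23 were 17 to 824 and 1 to 51 regions. Of the regions chosen on DMSO libraries, 1243 to 2017 and 74 to 498 lacked every WX-02-23 library left, and 380 to 1368 and 520 to 1013 every PladB library left. The highest counts came without WT-FOXA1 WX-02-23 replicate 1, C258A-FOXA1 WX-02-23 replicate 2, WT-FOXA1 PladB replicate 2 and C258A-FOXA1 PladB replicate 2. In runs lay 14.6% to 20.6%, width was 464 to 474 bp and strength 46.0 to 50.2. Over Dox-only regions the lines differed by 12.5 to 15.7 points (adjusted p 0.037 to 0.111), WX-02-23 by -8.45 to -3.84, PladB by -10.8 to -6.08 and the WX-02-23 effect between lines by -17.4 to -8.31. The regions held by every engineered library left were chosen anew each time, so they were not the same 169. Over them the ranges were -4.97 to -3.55 for no Dox, 0.460 to 2.65 for WX-02-23 and -3.70 to -0.603 for PladB. Between lines they were -2.06 to -0.621, and for the WX-02-23 effect between lines -1.77 to 2.49.

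Region by region, the deviations of same-numbered libraries had correlations of -0.0240 to 0.0295 over 21 pairs of groups. A correlation over regions does not register a shift shared by all regions of a library. It therefore cannot decide whether the numbers pair the libraries. With the replicate number as a block the differences kept their size and no call changed. For no Dox the blocked comparison used only the Dox DMSO libraries of the WT-FOXA1 line. Its difference was -4.57 points, the same as without a block for those libraries. Between lines, over Dox-only regions, the blocked exact permutation test gave 13.8 points with p = 0.0312 and an adjusted p of 0.125, the highest among its alternatives, of which the lowest was 0.037. Of 989 values recomputed over 26 results, 842 were counted as unchanged. For tested differences this asked only for the same sign and the same outcome of the test, not for a similar size. Over Dox-only regions, the WX-02-23 effect between lines was counted as unchanged at -0.420 points with lists of equal length, against -12.2 as reported. The 842 also include nearly all values from leaving out a parental library.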
